A study of Homo sapiens with 9 samples.

Results

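The nuclear-encoded subunits of the respiratory chain and of ATP synthase were followed in OCI-Ly1, an established human cell line of diffuse large B-cell lymphoma, at 2 doses of JIB-04. Members were the gene symbols that begin with NDUFA, NDUFB, NDUFC, NDUFS or NDUFV and a number (complex I), SDHA to SDHD (complex II), UQCR (complex III), COX4 to COX8 (complex IV) or ATP5 and a letter (complex V), with at least 10 counts in at least 3 libraries. Of 88 matching symbols among 25370 in the table, 81 were members: 37 of complex I, 4 of complex II, 10 of complex III, 12 of complex IV and 18 of complex V. They lie on 22 chromosomes. The rule used no difference between the groups, but the members were chosen with earlier results of these data known. The list as a whole was therefore not tested.

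The respiratory chain sits in the inner mitochondrial membrane. Complexes I and II pass electrons from NADH and succinate to ubiquinone, complex III passes them on to cytochrome c, and complex IV to oxygen. Complexes I, III and IV pump protons, and complex V, ATP synthase, lets them flow back to make ATP. Most subunits are encoded in the nucleus, imported and assembled with those of mitochondrial DNA. The mitochondrially encoded subunits were not analysed here. Some lymphomas of this type depend strongly on oxidative phosphorylation.

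The cells had been treated for 48 h with DMSO, the solvent, or with JIB-04 at 150 nM or at 500 nM. In each group 3 libraries were made from rRNA-depleted total RNA, 9 in all. JIB-04 inhibits histone demethylases of the Jumonji type, a family that includes KDM4A and KDM4C, after which the study is named. All groups are of the same cell line. Whether a group's libraries come from different cultures is not stated, so the p-values cover only the spread among these libraries, which may be technical. Levels are given in CPM, the counts of a gene relative to the TMM-scaled size of its library, and differences as log2 fold changes with their standard error (SE) from edgeR's quasi-likelihood test. A gene was called when its p, adjusted by the Benjamini-Hochberg method over the 15089 genes tested, was under 0.05. All 81 members passed the filter on low counts and were tested. The 3 comparisons share libraries in pairs, so their values are set side by side and are not independent of each other. In bulk RNA, fewer cells with a transcript and less of it per cell cannot be told apart.

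Libraries held 28476845 to 57198613 counts, with the smallest total in DMSO replicate 2, which also stood apart from the other libraries on the second principal component. The first component held 59.4% of the variance and separated the 500 nM libraries from the others. Of 9 B-cell markers, 8 were expressed at 59.0 CPM or more in every library, and MEF2B was at or below 0.664 CPM. MME, MS4A1, CD79B and CD22 were called lower and PAX5 higher at 500 nM than with DMSO. Of 12 markers of other blood cells, 7 were tested, and HBB, PF4 and MPO had 0 counts in all 9 libraries. The summed level of those 7 was 21.7 to 24.7 CPM with DMSO, 17 to 19.8 CPM at 150 nM and 10.1 to 11.3 CPM at 500 nM. The T-cell genes CD3D and CD3G were the only 2 of them called lower at 500 nM. CD3E, at 0.371 to 0.56 CPM, was not called. The source of these reads in a B-cell line was not tested.

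At 500 nM JIB-04, transcripts of the respiratory chain were lower than with DMSO in all 5 complexes. Of the 81 members, 59 fell, 3 rose and 19 were not called, while 25.6% of all genes tested were called lower and 26.3% higher. The median log2 fold change of the members was -0.31, a decrease of 19.4%, against 0.01 for all genes tested. The changes were small: 21 of the 59 fell by 0.50 or more on the log2 scale, and the only called change of 2-fold or more was that of UQCRBP1, a pseudogene of UQCRB. The libraries of both groups did not overlap for 59 members that were lower and 5 that were higher at 500 nM, against 29% and 30.2% of all genes tested. Of the 77 members left without UQCRBP1 and 3 symbols that match the rule but name no subunit of a complex (COX7A2L, ATP5S, ATP5SL), 58 fell and 2 rose.

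Summed over the members, the level was 11770, 11994 and 11373 CPM with DMSO, 11401, 11372 and 11252 CPM at 150 nM and 8947, 8913 and 8970 CPM at 500 nM. The 500 nM libraries were below all 6 others, and within a group the sums differed by little. The sum at 500 nM was 76.4% of that with DMSO over all members. It was 67.7% for complex V, 76.7% for complex III, 78.7% for complex IV, 83.4% for complex I and 87.1% for complex II. Abundant genes weigh most in such sums: with DMSO, ATP5A1 gave 1127 and ATP5B 1174 of the 4204 CPM of complex V. By medians of the log2 fold change the order was complex V (-0.41), IV (-0.37), III (-0.32), I (-0.27) and II (-0.17). Both orders take the complexes from the symbol prefix, and the sums were not redone by role. By medians assigned by role, with NDUFA4 in complex IV and symbols that name no subunit left out, complex IV (-0.47) came before complex V (-0.42). Members of a complex are not replicates, and these differences between complexes were not tested. Scaling by total counts in place of TMM moved the median of all genes tested to 0.15. On that scale the members' median was -0.17, with 45 called lower and 7 higher against 16.7% and 37.9% of all genes, and the median of complex II was -0.03. The 14 members no longer called lower on that scale were NDUFA2, NDUFA6, NDUFA7, NDUFA9, NDUFA11, NDUFB9, NDUFS3, NDUFV1, SDHA, SDHB, SDHD, UQCR10, UQCR11 and COX8A, and those called higher in addition were NDUFA12, NDUFB5, NDUFS7 and ATP5SL. Without DMSO replicate 2, 54 members were called lower and 1 higher, and without 500 nM replicate 1, 55 and 1.

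**Figure D1:**
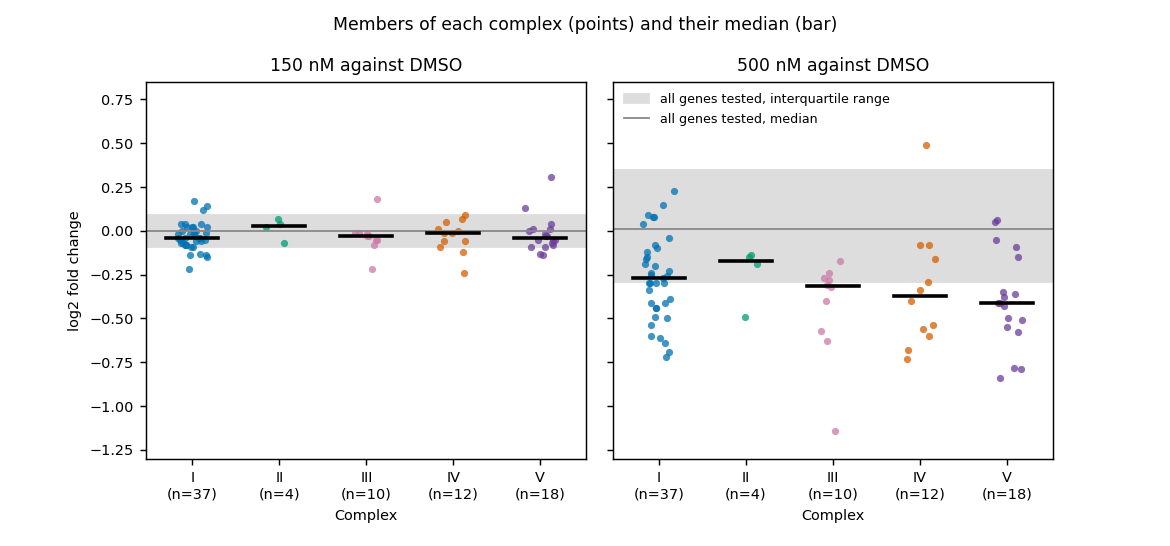
Log2 fold change of each of the 81 members (points) by complex at 150 nM and at 500 nM against DMSO, with the median of each complex as a black bar, and the interquartile range and median of all 15089 genes tested as a grey band and line. At 150 nM the medians lie near 0, and at 500 nM they lie between -0.17 (complex II) and -0.41 (complex V).

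Promoter sequences were read from RefSeq (GRCh38.p14) for the 64 members with an entry, as 250 bases before to 50 bases after the start of the gene, and searched on both strands for motifs of factors known to regulate respiratory chain genes. CGCANGCGC, the core of the site of nuclear respiratory factor 1 (NRF1), was found in 21 of the 64 (32.8%), against 8.05% of all 27305 promoters and 14.4% of the 11311 promoters of genes tested here. CCGGAAG, bound by ETS factors such as GABPA, was found in 29.7%, against 10.7% of all promoters and 18.4% of those of tested genes. AAGATGGC, the YY1 motif, was found in 17.2%, against 3.03% and 5.11%. GGGCGG, the SP1 motif, was found in 59.4%, against 44.6% and 66.8%. CCAAT was found in 32.8%, against 35.7% and 36.8%, and TGATGNAA, an ATF4-type element, in 1.56%, against 3.67% and 1.84%. The letters of these 6 motifs differ, and matches of different motifs may overlap. The NRF1 motif stood in 16 of the 48 promoters of members that fell (33.3%) and in 5 of the 16 others (31.2%), the ETS motif in 15 and 4 (31.2% and 25%), and the YY1 motif in 9 and 2 (18.8% and 12.5%). By complex, the NRF1 motif stood in 9 of 32 promoters of complex I, 2 of 3 of complex II, 4 of 7 of complex III, 1 of 10 of complex IV and 5 of 12 of complex V. A match is a stretch of letters and not a shown binding site.

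The stretch from 170 bases before to 30 bases after the start is printed for the member of each complex with the largest decrease among those with an NRF1, ETS or YY1 match in that stretch, and for the 3 members that rose. Capitals mark those matches on either strand, with overlapping matches as a single run, and COX7A2L had none in this window. In SDHA the NRF1 motif stood 4 times, each start 49 bases after the last.
NDUFB4 (complex I, lower, chr3:120596166-120596365, plus strand): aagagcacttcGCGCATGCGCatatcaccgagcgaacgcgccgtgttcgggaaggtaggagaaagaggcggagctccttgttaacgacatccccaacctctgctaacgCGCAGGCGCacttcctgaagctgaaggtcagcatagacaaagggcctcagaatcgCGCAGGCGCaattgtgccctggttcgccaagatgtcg
SDHA (complex II, lower, chr5:218150-218349, plus strand): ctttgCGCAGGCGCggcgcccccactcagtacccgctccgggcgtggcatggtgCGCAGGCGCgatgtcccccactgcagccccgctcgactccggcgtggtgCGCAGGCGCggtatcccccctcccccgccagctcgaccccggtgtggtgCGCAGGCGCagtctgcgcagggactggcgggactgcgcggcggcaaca
UQCRFS1 (complex III, lower, chr19:29213122-29213321, minus strand): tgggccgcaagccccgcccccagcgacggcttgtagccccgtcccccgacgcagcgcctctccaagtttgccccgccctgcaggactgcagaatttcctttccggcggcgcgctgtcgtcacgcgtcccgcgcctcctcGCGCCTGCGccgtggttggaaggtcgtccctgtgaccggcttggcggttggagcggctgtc
COX6B1 (complex IV, lower, chr19:35648153-35648352, plus strand): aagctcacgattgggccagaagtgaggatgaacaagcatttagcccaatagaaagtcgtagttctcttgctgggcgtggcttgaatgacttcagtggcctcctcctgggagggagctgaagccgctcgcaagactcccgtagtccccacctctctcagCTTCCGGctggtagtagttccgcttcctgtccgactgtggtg
ATP5F1 (complex V, lower, chr1:111449294-111449493, plus strand): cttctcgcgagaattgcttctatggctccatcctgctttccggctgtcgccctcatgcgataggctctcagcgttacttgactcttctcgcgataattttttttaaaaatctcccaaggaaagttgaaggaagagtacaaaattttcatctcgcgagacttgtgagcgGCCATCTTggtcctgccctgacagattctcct
NDUFA13 (complex I, higher, chr19:19516055-19516254, plus strand): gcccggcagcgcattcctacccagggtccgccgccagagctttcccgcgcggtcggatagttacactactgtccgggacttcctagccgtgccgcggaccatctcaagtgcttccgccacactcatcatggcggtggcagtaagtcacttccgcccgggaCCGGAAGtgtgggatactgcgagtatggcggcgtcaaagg
NDUFS4 (complex I, higher, chr5:53560469-53560668, plus strand): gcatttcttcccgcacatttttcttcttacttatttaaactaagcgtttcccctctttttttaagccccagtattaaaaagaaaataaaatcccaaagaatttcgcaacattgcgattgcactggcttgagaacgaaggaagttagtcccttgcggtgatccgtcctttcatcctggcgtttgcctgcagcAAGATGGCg
COX7A2L (supercomplex factor, higher, chr2:42361188-42361387, minus strand): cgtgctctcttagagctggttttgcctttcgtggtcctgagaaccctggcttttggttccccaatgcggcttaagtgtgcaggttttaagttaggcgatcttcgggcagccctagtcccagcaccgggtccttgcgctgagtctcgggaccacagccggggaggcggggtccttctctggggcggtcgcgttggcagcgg

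Complex I, NADH dehydrogenase, had 25 members that fell, 2 that rose and 10 that were not called. The largest decreases were in small accessory subunits of the membrane arm, the part that pumps protons. NDUFB3 was at 69.6, 76.5 and 74.0 CPM with DMSO, 66.1, 73.6 and 70.0 CPM at 150 nM and 46.6, 41.8 and 45.5 CPM at 500 nM. All 500 nM libraries lay below all others, and NDUFB3 fell by 0.72 ± 0.07 on the log2 scale against DMSO (SE, n = 3 per group, adjusted p = 8.31e-10). NDUFB4 fell by 0.69 ± 0.07 and NDUFB1 by 0.64 ± 0.08 against DMSO. The other accessory subunits that fell, from NDUFC1 (0.61 ± 0.08) to NDUFA9 (0.20 ± 0.06), were NDUFS5, NDUFA3, NDUFA1, NDUFB2, NDUFB6, NDUFV3, NDUFS6, NDUFB8, NDUFB10, NDUFA7, NDUFA6, NDUFB9, NDUFA2 and NDUFA11. Of these, the calls of NDUFA2 and NDUFA9 were lost without DMSO replicate 2, and that of NDUFA2 also without 500 nM replicate 1. Of the 20 members of the membrane arm 13 fell and 1 rose (median -0.30), and of the 16 of the matrix arm, which takes up electrons from NADH, 11 fell and 1 rose (median -0.24).

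Core subunits of complex I, which include those that carry its redox centres, fell or were not called. NDUFV2, an iron-sulphur subunit, was at 215, 222 and 222 CPM with DMSO, 207, 220 and 225 CPM at 150 nM and 162, 160 and 164 CPM at 500 nM. The 500 nM libraries were the lowest. NDUFV2 fell by 0.44 ± 0.05, and NDUFS1, which holds several iron-sulphur clusters, by 0.30 ± 0.05. NDUFS3 fell by 0.23 ± 0.06, and NDUFV1, which binds NADH and FMN, by 0.19 ± 0.06 (adjusted p = 0.00701), a call lost without 500 nM replicate 3. NDUFS8 had a log2 fold change of -0.04 ± 0.07 (adjusted p = 0.703) and NDUFS7 one of 0.04 ± 0.07 (adjusted p = 0.678), and their groups overlapped. With the trend on GC content removed, NDUFS7 was called lower, at -0.18, and so was NDUFS8 (adjusted p = 0.00387).

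Both members of complex I that rose were accessory subunits, and neither call held in all settings. NDUFS4, at the NADH end of the matrix arm, was at 27.7, 22.8 and 27.6 CPM with DMSO, 25.9, 26.2 and 28.3 CPM at 150 nM and 32.8, 30.4 and 28.7 CPM at 500 nM. The 500 nM libraries were above all DMSO libraries by a narrow margin, with a log2 fold change of 0.23 ± 0.09 (adjusted p = 0.0285). NDUFA13, also known as GRIM19, was at 215, 212 and 222 CPM with DMSO, 229, 214 and 225 CPM at 150 nM and 245, 243 and 235 CPM at 500 nM. Its log2 fold change was 0.15 ± 0.05 (adjusted p = 0.0106), and its exons overlap those of YJEFN3 on the same strand in the GENCODE v29 annotation. Both calls were lost without DMSO replicate 2 and without 500 nM replicate 1, and that of NDUFS4 also without 500 nM replicate 2. With the GC trend removed NDUFA13 was not called either, at 0.05 (adjusted p = 0.319). The members of complex I not called were NDUFA5, NDUFA8, NDUFA10, NDUFA12, NDUFB5, NDUFB7, NDUFB11, NDUFC2, NDUFS7 and NDUFS8. Of these, NDUFB7 was called lower without DMSO replicate 3. NDUFA5 was called lower with only the 6 libraries compared, with no filter on low counts, and without 150 nM replicate 1, a library that enters through the shared fit. With the GC trend removed, NDUFA5 and NDUFB7 were also called lower, and NDUFA12 and NDUFB5 higher.

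Complex II, succinate dehydrogenase, is also an enzyme of the tricarboxylic acid cycle, and all 4 of its genes were called lower, but the calls of SDHB and SDHD were near the threshold. SDHC, a membrane anchor, was at 68.9, 66.5 and 61.3 CPM with DMSO, 74.2, 68.8 and 63.3 CPM at 150 nM and 46.0, 46.4 and 48.1 CPM at 500 nM. The 500 nM libraries lay well below the others, and SDHC fell by 0.49 ± 0.07 on the log2 scale against DMSO (adjusted p = 1.29e-06). The other 3 fell by less. SDHA, the flavoprotein that oxidises succinate, was at 111, 110 and 104 CPM with DMSO, 109, 94.6 and 105 CPM at 150 nM and 94.3, 97 and 93.7 CPM at 500 nM, and fell by 0.19 ± 0.06 (adjusted p = 0.0102). SDHB, the iron-sulphur subunit, fell by 0.14 ± 0.06 (adjusted p = 0.0362) and SDHD, the other membrane anchor, by 0.15 ± 0.07 (adjusted p = 0.0493). The call of SDHB was lost without DMSO replicate 1 or 2 or any 500 nM library, and so was that of SDHD. In all, SDHB lost its call in 9 and SDHD in 11 of 20 other settings, among them the GC and length trends removed for both, no filter on low counts for SDHB, and DESeq2, limma-voom and the 1 CPM filter for SDHD. With scaling by total counts SDHB had a log2 fold change of 0.00.

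Complex III, the cytochrome bc1 complex, had 9 of 10 members that fell and none that rose. UQCRFS1, the Rieske iron-sulphur protein, was at 148, 146 and 140 CPM with DMSO, 148, 136 and 142 CPM at 150 nM and 98.5, 98.6 and 95.8 CPM at 500 nM. The groups at 500 nM and with DMSO were wide apart, and UQCRFS1 fell by 0.57 ± 0.05 on the log2 scale (adjusted p = 1.11e-09). UQCRB, a small subunit that binds ubiquinone, was at 193, 222 and 224 CPM with DMSO, 186, 209 and 221 CPM at 150 nM and 142, 134 and 135 CPM at 500 nM, and fell by 0.63 ± 0.06 (adjusted p = 1.89e-09). The core proteins UQCRC1 and UQCRC2 fell by 0.40 ± 0.06 and 0.32 ± 0.05. The small subunits UQCRQ, UQCRH, UQCR10 and UQCR11 fell by 0.24 to 0.31, and the call of UQCR11 was lost without DMSO replicate 1 and without 500 nM replicate 1. UQCRBP1 was at 0.755 to 1.06 CPM at 500 nM and 1.36 to 2.68 CPM with DMSO, and reads of its parent gene UQCRB may be split between them. UQCRHL, a retrocopy of UQCRH below 1 CPM, was not called.

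Complex IV, cytochrome c oxidase, had 8 of 12 members that fell by the symbol prefix. NDUFA4, named for complex I, is now known as a subunit of complex IV, and COX7A2L is not a subunit of the catalytic enzyme. Assigned by role, 9 of 12 fell and none rose, and the median was -0.47. COX7C, a small membrane subunit, was at 278, 316 and 287 CPM with DMSO, 291, 293 and 289 CPM at 150 nM and 174, 177 and 180 CPM at 500 nM. No 500 nM library came near the others, and COX7C fell by 0.73 ± 0.05 on the log2 scale (adjusted p = 2.46e-12). COX7B fell by 0.68 ± 0.06, NDUFA4 by 0.60 ± 0.05, COX5A by 0.60 ± 0.06 and COX6B1 by 0.56 ± 0.06.

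The paralogues of complex IV subunits that mark muscle, heart, lung or testis were near or at 0 in this B-cell line. COX4I1, the ubiquitous form of subunit 4, was at 250, 244 and 226 CPM with DMSO, 236, 224 and 231 CPM at 150 nM and 197, 197 and 194 CPM at 500 nM, and fell by 0.29 ± 0.05. COX4I2 had 0 counts in every library, COX6A2 had 2 counts in a single library, and COX7B2 had 0. The other matching symbols below the minimum, COX8C, ATP5EP2 and ATP5J2-PTCD1, had at most 6 counts in any library. COX7A1, with 10 counts or more in 3 libraries, was just inside the rule, at 0.0619 to 0.445 CPM, and COX6B2, which reached 10 counts in 2 libraries, was just outside it. COX5B, at 113, 113 and 117 CPM at 500 nM and 130, 122 and 110 CPM with DMSO, was not called, with a log2 fold change of -0.08 ± 0.06 (adjusted p = 0.274), but was called lower without DMSO replicate 3 (adjusted p = 0.0497). COX6A1 was not called either, with a log2 fold change of -0.08 ± 0.05. COX6C fell by 0.40 ± 0.06. COX8A was called lower by 0.16 ± 0.07 (adjusted p = 0.0491), a call lost in 10 of 20 other settings, among them DESeq2, limma-voom and leaving out DMSO replicate 1 or 2 or 500 nM replicate 2 or 3 or 150 nM replicate 2.

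COX7A2L, also known as SCAF1, joins complexes III and IV in supercomplexes, and was the member that rose most. It was at 67.6, 76.3 and 67.8 CPM with DMSO, 70.8, 78.7 and 74.7 CPM at 150 nM and 105, 91.1 and 99.7 CPM at 500 nM. All 500 nM libraries lay above all others, with a log2 fold change against DMSO of 0.49 ± 0.07 (adjusted p = 7.5e-07). Its paralogue COX7A2, a subunit of complex IV, was at 118, 114 and 120 CPM with DMSO, 120, 126 and 120 CPM at 150 nM and 92.7, 93.5 and 91.8 CPM at 500 nM, and fell by 0.34 ± 0.05. The ratio of COX7A2L to COX7A2 in CPM was 1.06 ± 0.081 at 500 nM and 0.602 ± 0.06 with DMSO (SD, n = 3 each). All 3 ratios at 500 nM were above all 3 with DMSO, which follows from both genes being apart in opposite directions. The two-sided exact permutation test could thus only give p = 0.1, the smallest that 3 against 3 allows. It adds nothing to the results of the single genes, and adjustment over the 4 ratios computed left it the same.

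**Figure D2:**
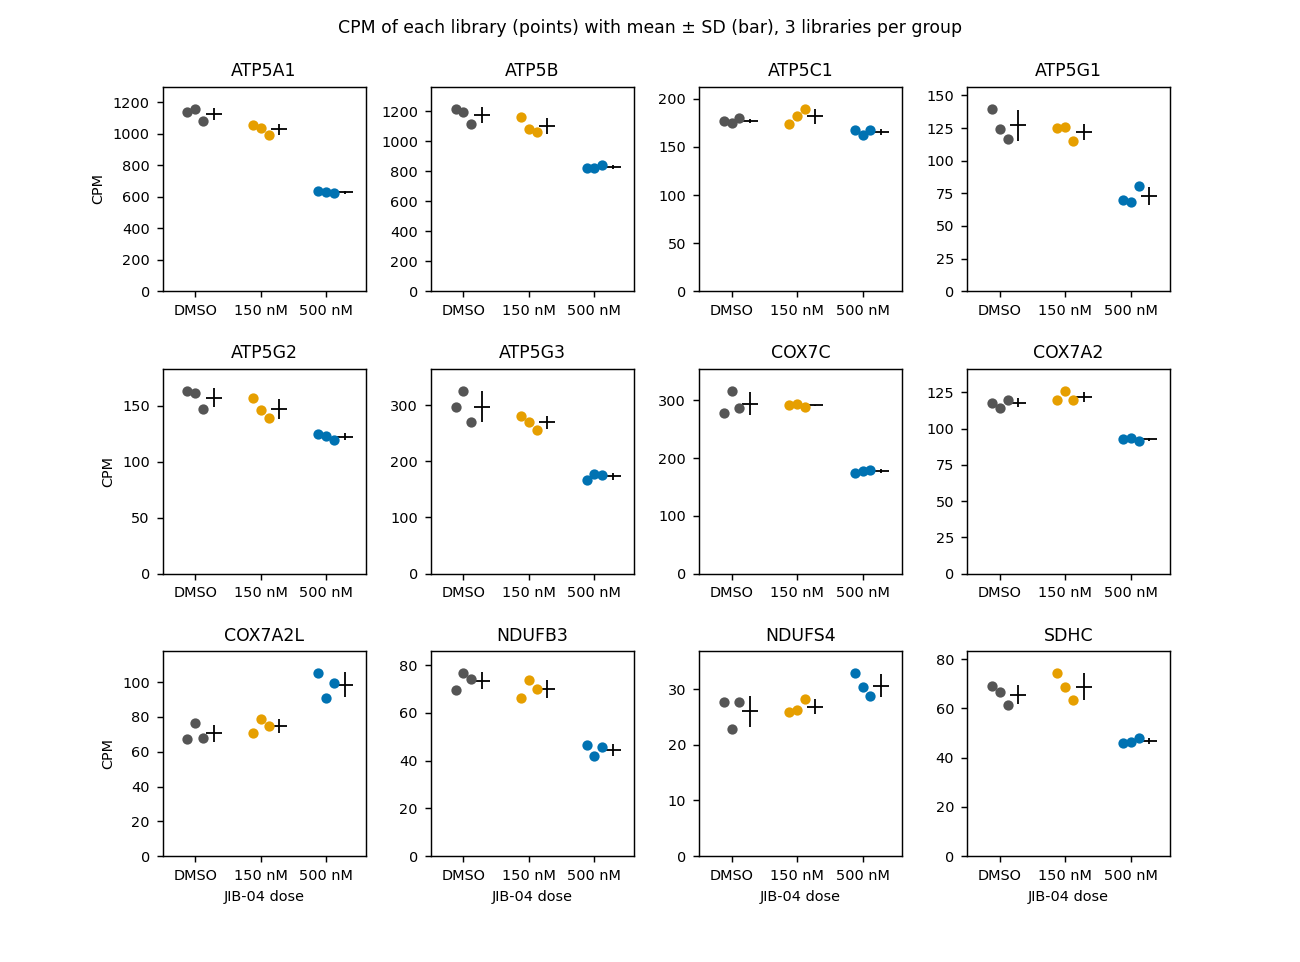
CPM of 12 members in each of the 9 libraries (points) with the mean and SD of each group beside them, in order of dose, with axes from 0. ATP5A1, ATP5G1, ATP5G3, COX7C, NDUFB3 and SDHC are lower in every 500 nM library than in any other library, COX7A2L is higher in every 500 nM library, and ATP5C1 differs little between the groups.

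Complex V, ATP synthase, had 13 of 18 members that fell, 5 that were not called and none that rose. ATP5A1, the alpha subunit of the catalytic F1 head, was at 1136, 1161 and 1083 CPM with DMSO, 1058, 1040 and 991 CPM at 150 nM and 640, 628 and 622 CPM at 500 nM. The 500 nM libraries were close together and far below the others, and ATP5A1 fell by 0.84 ± 0.05 on the log2 scale (adjusted p = 5.72e-15), or 44.1%. ATP5B, the beta subunit that holds the catalytic sites, was at 1217, 1191 and 1115 CPM with DMSO, 1158, 1080 and 1061 CPM at 150 nM and 819, 822 and 841 CPM at 500 nM. ATP5B fell by 0.50 ± 0.05 on the log2 scale (adjusted p = 5.87e-10), or 29.5%.

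The other parts of the F1 head did not follow ATP5A1 in size. ATP5D, the delta subunit of the central stalk, fell by 0.58 ± 0.08 (adjusted p = 7.21e-07). ATP5C1, the gamma subunit that turns within the head, was at 177, 175 and 180 CPM with DMSO, 174, 182 and 190 CPM at 150 nM and 168, 162 and 168 CPM at 500 nM. Its 500 nM libraries lay just below those with DMSO, but it was not called, with a log2 fold change of -0.09 ± 0.05 (adjusted p = 0.124). ATP5E, the epsilon subunit, was at 7.88, 10.8 and 8.61 CPM at 500 nM and 10.4, 7.95 and 7.63 CPM with DMSO, and was not called. The ratio of ATP5C1 to ATP5A1 in CPM was 0.263 ± 0.0056 at 500 nM and 0.157 ± 0.0077 with DMSO, and that of ATP5B to ATP5A1 was 1.31 ± 0.036 at 500 nM and 1.04 ± 0.025 with DMSO (SD, n = 3 each, two-sided exact permutation p = 0.1 for both).

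The c-ring, which turns as protons pass, is built of copies of a protein encoded by 3 genes, ATP5G1, ATP5G2 and ATP5G3, whose mature products are identical. ATP5G1 was at 140, 124 and 117 CPM with DMSO, 125, 126 and 115 CPM at 150 nM and 69.8, 68.2 and 80.9 CPM at 500 nM, and fell by 0.79 ± 0.07 on the log2 scale (adjusted p = 2.11e-10). ATP5G3 was at 296, 325 and 270 CPM with DMSO, 280, 270 and 256 CPM at 150 nM and 166, 178 and 175 CPM at 500 nM, and fell by 0.78 ± 0.06 (adjusted p = 7.33e-12). ATP5G2 was at 163, 161 and 147 CPM with DMSO, 157, 146 and 139 CPM at 150 nM and 125, 123 and 119 CPM at 500 nM, and fell by 0.36 ± 0.06 (adjusted p = 5.9e-06). The 500 nM libraries lay below all others for each of the 3 genes. ATP5G2 gave 33.2% ± 1.4 of the CPM of the 3 genes at 500 nM and 27.1% ± 0.61 with DMSO (SD, n = 3 each, two-sided exact permutation p = 0.1).

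All 4 members of the peripheral stalk, which holds the head still, fell, with a median of -0.42: ATP5F1 by 0.55 ± 0.05, ATP5H by 0.43 ± 0.06, ATP5O by 0.41 ± 0.05 and ATP5J by 0.38 ± 0.07. The small membrane subunits ATP5J2, ATP5L and ATP5I fell by 0.35 to 0.51. ATP5L2, a copy of ATP5L below 1 CPM, was not called. ATP5S and ATP5SL, which are not subunits of the enzyme, were not called, with log2 fold changes of -0.05 ± 0.10 and 0.05 ± 0.07.

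Over all complexes, 16 of the 19 members not called were at 1 CPM or more. Their log2 fold changes at 500 nM against DMSO were -0.16 to 0.09, with SEs of 0.05 to 0.14, so small changes in them cannot be told from none. Exons of 44 members overlap those of another gene in GENCODE v29, and 44 members have named pseudogenes, so that the counts of some members may include or lose reads. The members have short transcripts, with a median of 842 bases against 2366 for all genes tested. With the trend on transcript length removed, 54 members were called lower and 4 higher, with a median of -0.25. With the trend on GC content removed, 61 were called lower and 4 higher.

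**Figure D3:**
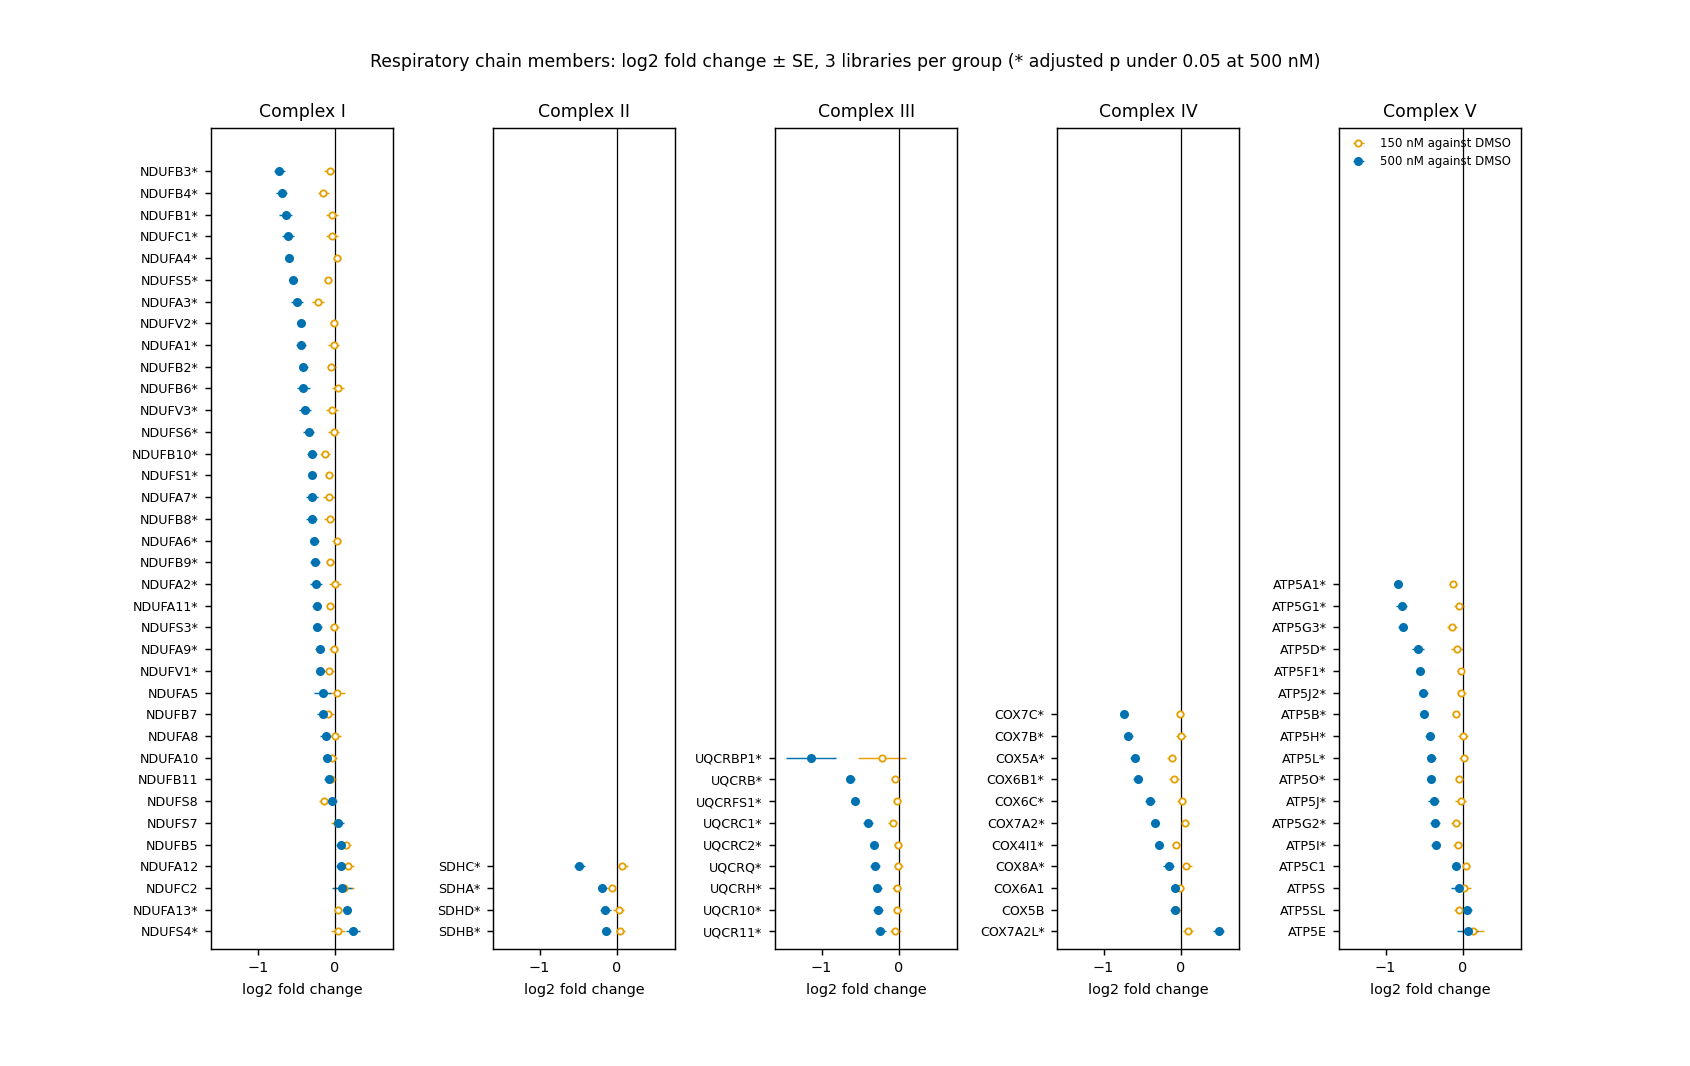
Log2 fold change of the members at or above 1 CPM, except 1 of complex I, against DMSO, with its SE, at 150 nM (open circles) and 500 nM (filled circles), by complex and in order of the change at 500 nM, with an asterisk where the adjusted p at 500 nM was under 0.05. Filled circles lie left of 0 for most members of every complex, down to -0.84 for ATP5A1 and -1.14 for the pseudogene UQCRBP1, and COX7A2L lies farthest right, at 0.49.

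At 150 nM JIB-04, none of the 81 members was called against DMSO by edgeR's quasi-likelihood test, and none by DESeq2 or limma-voom. Of all genes tested, 0.318% were called lower and 0.954% higher at this dose. An unadjusted p under 0.05 was found for 7 members (8.64%), against 10.4% of all genes tested, among them NDUFA12, NDUFB10, ATP5A1, NDUFA3, ATP5G3 and NDUFB5. The median log2 fold change of the members was -0.03, with a range of -0.24 to 0.31, and that of all genes tested was 0.00. The libraries at 150 nM and with DMSO did not overlap for 6 members that were lower and 0 that were higher, against 7.32% and 6.41% of all genes. The summed level of the members at 150 nM was 96.8% of that with DMSO.

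ATP5A1 had a log2 fold change of -0.13 at 150 nM against DMSO (adjusted p = 0.232), with all 3 libraries at 150 nM below all 3 with DMSO. NDUFA3, an accessory subunit of the membrane arm, was at 31.3, 32.1 and 35.0 CPM at 150 nM and 38.5, 38.2 and 37.8 CPM with DMSO, a log2 fold change of -0.22 (adjusted p = 0.232). Without 150 nM replicate 1 a single member, NDUFB5, was called at 150 nM, with a log2 fold change of 0.24 ± 0.06 (adjusted p = 0.0121). NDUFB5 was at 82.1, 101 and 104 CPM at 150 nM and 87.1, 86.8 and 85.3 CPM with DMSO.

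Set directly against each other, the doses differed for most members. Of the 81 members, 58 were lower at 500 nM than at 150 nM and 1 was higher, while 22.8% of all genes tested were called lower and 23.7% higher. The median log2 fold change was -0.29. ATP5G1 fell by 0.74 ± 0.07 (adjusted p = 1.25e-09), COX7C by 0.72 ± 0.05 (adjusted p = 5.43e-12) and ATP5A1 by 0.71 ± 0.05 (adjusted p = 3.94e-13) at 500 nM against 150 nM, and COX7A2L rose by 0.40 ± 0.07 (adjusted p = 1.72e-05). NDUFV1 and SDHA were called lower against DMSO and not against 150 nM. ATP5C1 was called lower against 150 nM, by 0.13 ± 0.05 (adjusted p = 0.0368), and not against DMSO. NDUFA13 and NDUFS4 were not called against 150 nM. The libraries did not overlap for 57 members that were lower and 4 that were higher at 500 nM than at 150 nM, against 26% and 29% of all genes tested. Without 150 nM replicate 1, 3 members were called higher, NDUFA13 and NDUFS8 besides COX7A2L.

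**Figure D4:**
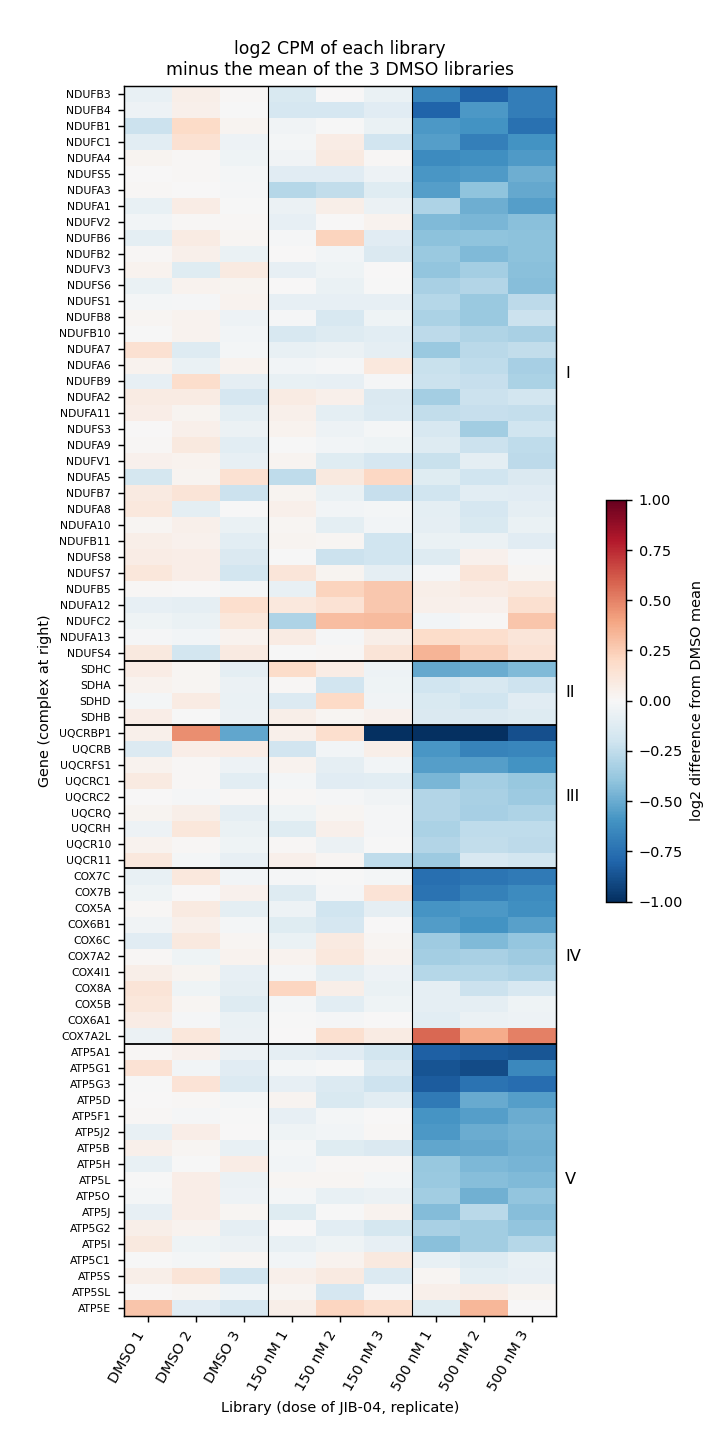
Log2 CPM of the members at or above 1 CPM, except 1 of complex I, in each of the 9 libraries, less the mean of the 3 DMSO libraries, by complex and in order of the mean at 500 nM, with values beyond 1 in either direction drawn in the end colours. The 3 columns of 500 nM are blue for most members of every complex, COX7A2L is red there, and the columns of 150 nM are pale for most members.

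Compared per kilobase of transcript, the levels of the members with DMSO differed widely. The median was 95.5 CPM per kb in complex I, 120 in complex II, 107 in complex III, 236 in complex IV and 150 in complex V. ATP5B was the highest member, at 638 CPM per kb, and among members of complex I NDUFB9 was the highest, at 312, and NDUFC2 the lowest, at 8.01. Exons of NDUFC2 overlap those of NDUFC2-KCTD14 on the same strand, so its counts may have lost reads. The length of each gene was that of a single annotated transcript, which may not be the one expressed, so these levels are rough.

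Of the transcripts of 16 assembly factors of complex I, 8 fell at 500 nM against DMSO (50%, against 25.6% of all genes tested) and none rose. ACAD9, an acyl-CoA dehydrogenase that also assembles complex I, fell by 0.79 ± 0.06 (adjusted p = 9.06e-12), and NDUFAF1 by 0.66 ± 0.09. Of 23 assembly factors of complex IV, 8 fell and 2 rose, and the share that fell, 34.8%, was nearer to that of all genes. COA4 fell by 0.41 ± 0.06 and COA7 by 0.43 ± 0.07, while COX19, which takes part in copper delivery, rose by 0.37 ± 0.09 and COX20, at low levels, by 0.62 ± 0.26 (adjusted p = 0.0489). Of 4 assembly factors of complex II 1 fell (SDHAF2), of 6 of complex III 3 fell, among them LYRM7 and UQCC2, and of 4 of complex V with its inhibitor 1 fell (TMEM70), with none that rose. These lists are short, and the shares that fell were 25% for complexes II and V, close to that of all genes, and 50% for complex III. The medians of these lists were -0.21 for complex I, -0.17 for complex II, -0.19 for complex III, -0.08 for complex IV and -0.09 for complex V.

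Transcripts of the mobile carrier of electrons and of enzymes upstream were called lower too. Cytochrome c (CYCS) fell by 0.42 ± 0.09, cytochrome c1 (CYC1), a subunit of complex III outside the symbol rule, by 0.39 ± 0.06, and HCCS, which attaches haem to both, by 0.30 ± 0.09. Of 14 other enzymes of the tricarboxylic acid cycle, 13 fell (92.9%, against 25.6% of all genes tested) and none rose, with a median of -0.31. IDH2, the mitochondrial NADP-dependent isocitrate dehydrogenase, fell by 0.73 ± 0.06 (adjusted p = 1.19e-11), OGDH by 0.66 ± 0.06 and SUCLA2 was not called. Of 11 genes of coenzyme Q synthesis, 2 fell (COQ3 by 0.62 ± 0.10 and COQ7 by 0.22 ± 0.09) and COQ5 rose, by 0.24 ± 0.08, so 18.2% of the list fell, below the share of all genes.

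Of 22 genes of protein import into mitochondria, 13 fell (59.1%) and 2 rose, against 25.6% and 26.3% of all genes tested. TIMM44, which recruits the import motor, rose by 0.56 ± 0.06 (adjusted p = 4.32e-09) and DNAJC19, a J-domain protein of that motor, by 0.42 ± 0.07, while TOMM6 fell by 0.55 ± 0.06 and TIMM8B, a small chaperone of the intermembrane space, by 0.49 ± 0.06. Of 14 mitochondrial chaperones and proteases, 8 fell (57.1%) and 2 rose, beside the same shares of all genes. HSPE1 and HSPD1, the chaperonin of the matrix, fell by 0.93 ± 0.12 and 0.55 ± 0.04, and TRAP1, the mitochondrial HSP90, by 0.45 ± 0.05, while LONP1, a matrix protease, rose by 0.73 ± 0.05 (adjusted p = 3.52e-12) and HSPA9, the matrix HSP70, by 0.19 ± 0.05.

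Among 15 regulators of respiratory chain genes, 14 were tested, 7 fell (50%) and 1 rose, against 25.6% and 26.3% of all genes tested. The coactivators PPARGC1B and PPRC1 fell by 0.55 ± 0.09 and 0.49 ± 0.08, and PPARGC1A was too low to be tested. NRF1, whose motif was searched above, was at 34.7, 35.2 and 39.9 CPM at 500 nM and 42.6, 47.9 and 42.7 CPM with DMSO, and fell by 0.28 ± 0.08 (adjusted p = 0.00599). TFAM and TFB1M, which act in transcription of mitochondrial DNA and its ribosomes, fell by 0.17 ± 0.06 and 0.32 ± 0.08, SP1 by 0.17 ± 0.05 and CREB1 by 0.18 ± 0.07. MEF2A rose by 0.44 ± 0.06. GABPA (-0.16 ± 0.08), GABPB1 (-0.15 ± 0.07), YY1 (-0.07 ± 0.06), ESRRA (-0.24 ± 0.10), TFB2M (-0.18 ± 0.09) and POLRMT (0.06 ± 0.07) were not called. No gene of these lists was called at 150 nM against DMSO.

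**Figure D5:**
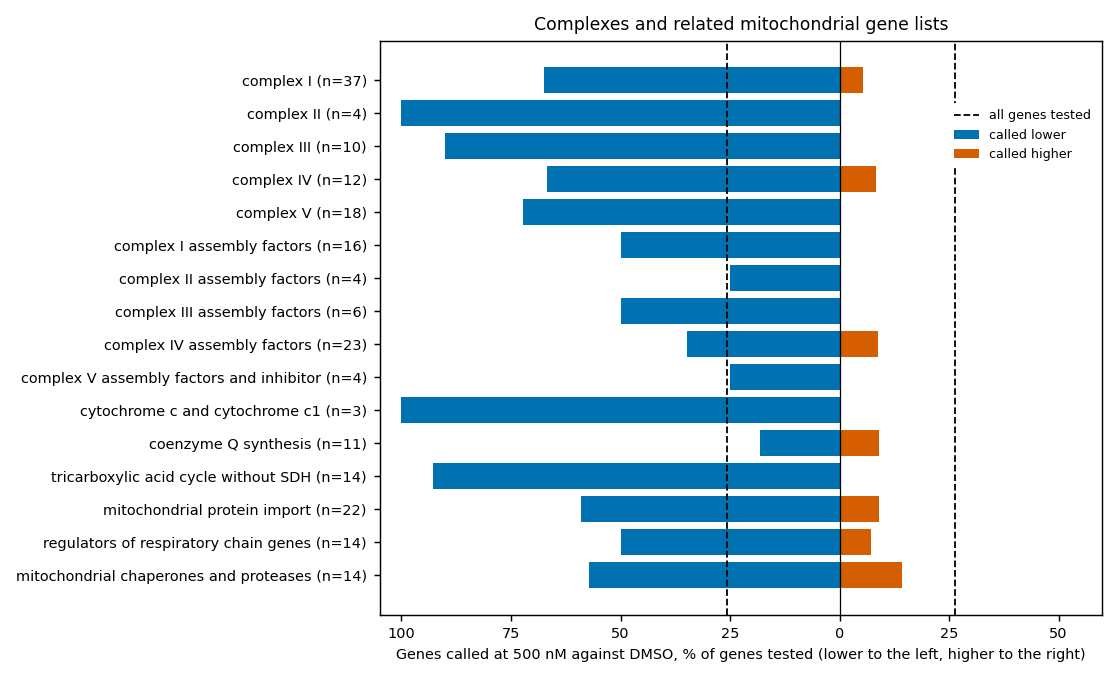
Share of the genes tested in each complex and each list that were called lower (left, blue) or higher (right, orange) at 500 nM against DMSO, with the shares of all genes tested, 25.6% and 26.3%, as dashed lines. The share called lower is above that of all genes in the 5 complexes, cytochrome c, the tricarboxylic acid cycle, the import genes, the chaperones and proteases, the regulators and the assembly factors of complexes I, III and IV, about equal to it for those of complexes II and V (1 of 4 genes each), and lower in coenzyme Q synthesis.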

How the data were processed

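RNA of 9 libraries was used as the authors deposited it, as raw counts per gene symbol in a single table. Per the submitters' processing notes, the tools were featureCounts 1.4.6, Subread, TopHat2 2.0.14 and Bowtie2 2.2.6 and the builds mm10 and hg19, with no roles stated. The annotation was not given in the sources used here. Neither was the strand setting, so reads of antisense or overlapping genes cannot be told apart. Sample titles gave the groups and replicate numbers. Libraries held 28476845 to 57198613 counts.

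Genes with few counts were removed by filterByExpr (at least 10 counts in enough libraries and 15 in all), and libraries were scaled by TMM and fitted with edgeR 4.0.16 in R 4.3.3, by a robust quasi-likelihood model over all 9 libraries. SEs are the log2 fold change over the square root of F. Adjusted p-values are by the Benjamini-Hochberg method over all 15089 genes tested. Transcript length and GC came from GENCODE v29, and 21 symbols were matched through another symbol of RefSeq. Members, lists and the roles within a complex were chosen with earlier results of these data known. 1 member of complex I is counted but not reported here by its values. The text names the SDH genes, the largest changes of each complex, core subunits, paralogues, members that rose or were not called, and from each list up to 2 genes with the smallest adjusted p in each direction, and HSPE1 as the partner of HSPD1.

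Alternatives were DESeq2 1.42.0, limma-voom 3.58.1, other scalings and filters, only the 6 libraries compared, a replicate block, each library left out, GC or length trends removed (lowess span 0.3), and the 20 most abundant genes left out. On simulated counts for 500 nM against DMSO (14885 genes), the fit recovered 56% of genes raised by 25% or lowered by 20%. It recovered 90% of genes changed 1.5-fold and 98% of those changed 2-fold, and 8 of its 180 calls were false. In the measured libraries, 7843 of 15089 genes were called in this comparison. Recovery with that many calls, and for the members themselves, was not tested.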

Additional observations from a re-analysis of the deposited data

How the results depend on the processing

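Of 287 summary values recomputed, which are counts of called members and medians, 258 were taken as close to the reported ones. The margin for counts was wide: 45 members called lower in place of 59, under total-count scaling, still passed as close. Of 1616 values of single members, 1545 stayed called or stayed not called, 54 lost a call and 15 gained one. Changes of sign in members not called in either fit are among the 1545 and were not counted apart. The other 2 changed sign and also lost or gained a call. SDHB, called lower in the report, was at 0.00 and not called under total-count scaling (adjusted p = 0.992). NDUFS7, not called in the report at 0.04, was called lower with the GC trend removed (-0.18, adjusted p = 0.00269). The cause of these shifts was not tested.

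Total-count scaling gave medians against DMSO at 500 nM of -0.17 over the members, -0.13, -0.03, -0.18, -0.23 and -0.27 for complexes I to V, and 7 members called higher. Between the doses it gave a median of -0.17 and 5 called higher. With the length trend removed the medians were -0.25 over the members, -0.22, -0.33 and -0.35 for complexes I, IV and V, and -0.25 between the doses with 3 called higher. With the GC trend removed the medians of complexes III and IV were -0.28 and -0.32, with 2 called higher between the doses, as with the filter of 1 CPM. Complex III had a median of -0.35 by limma-voom, and complex IV one of -0.47 by role.

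Leaving out each library in turn gave 1 to 3 members called higher and 54 to 61 lower at 500 nM, 0 to 1 higher at 150 nM, and 1 to 3 higher between the doses. Medians ran from -0.35 to -0.31 for complex III and from -0.38 to -0.30 for complex IV.

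With the replicate number as a block, 59 members were called lower and 3 higher at 500 nM against DMSO and none at 150 nM. Over all genes tested, the block gave 99 called lower and 209 higher at 150 nM, in place of 48 and 144. Deviations of same-numbered libraries from their group means correlated at -0.052 to 0.104. Between DMSO and 150 nM they correlated at 0.104, 0.013 and 0.07, above the -0.083 to 0.008 of differently numbered libraries. Comparisons with 500 nM showed no such order. Pairs are not stated, and the numbers were not taken as pairs in the main fit. At this depth members below 1 CPM could not be judged.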
